A study of Homo sapiens with 6 samples.

Results

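Expression was examined for 33 genes of chromosome 5q32 to 5q33 in K562 cells, an established human line of erythroblastic leukemia. The genes were taken in map order, from SLC26A2 to MRPL22, because they form a raised stretch of chromosome 5 away from 5q14, and all 86 probe sets that name 1 of them were read. The values that chose them were therefore the differences between the groups described here, so those differences are a description and support nothing further. They are 33 of 19775 genes that a probe set of the array names alone. A filter on low signal left 24 of them, of 11810 tested genes. Parental K562 cells, sensitive to the folate antagonist methotrexate (MTX) and grown in Ham's F12 medium, were compared with K562 cells selected by rising MTX concentrations. The labels give 10e-5 M as the concentration these cells resist, and they were grown without glycine, hypoxanthine and thymidine and with dialyzed serum. Resistance and medium thus cannot be told apart, and the sources do not say whether the resistant line is 1 clone. Each group had 3 arrays, and nothing states that they came from separate cultures, so errors do not reach beyond these samples. Each SE of a log2 difference also draws on the variance shared by all tested probe sets.

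Band 5q32 to 5q33 holds genes with no common function. It is known in blood diseases because part of it is lost in the 5q- syndrome, a myelodysplastic disorder in which loss of the ribosomal protein gene RPS14 disturbs the making of red cells. Several of its genes act on RNA, from the synthesis of ribosomal RNA to the decay of messengers, whereas others handle lysosomal lipids, copper, sulfated sugars or calcium-bound membranes.

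All 8 of the K562 markers with a probe set of their own, among them GATA1, TAL1 and HBZ, stood at or above 1 array median in both groups. Their levels still differed. HBE1 averaged 600.5 in parental and 61.6 in resistant cells, and GATA1, TAL1, EPOR and TFRC were also lower. KLF1, HBZ and ALAS2 averaged higher in resistant cells. Parental array 1 stood apart from parental 2 and 3 (Spearman correlations of 0.899 and 0.889, against 0.969 between the latter). The summed level of 8 epithelial markers reached 641.3 array medians for parental 1, against 335.1 and 269.4 for parental 2 and 3 and 222.3 to 306.5 for the resistant arrays, with 7 of the 8 highest among parental arrays in parental 1. Resistant array 3 had the highest ratio of 3' to 5' signal for the beta-actin control of the array, 2.01, against 1.19 to 1.5 in the other 5. Since RNA was pooled from many cells, fewer cells of a type and less RNA per cell cannot be told apart.

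The upstream sequences of 3 genes are shown: ANXA6 and GM2A, the 2 called genes with the largest differences upward, and CCDC69, which had the largest difference downward. Each gives the 250 bases before the transcription start in the RefSeq annotation of GRCh38.p14, 5′ to 3′ on the strand of the gene. Capitals mark matches, on either strand, to GGGCGG (GC box), CCAAT or CACCC (KLF type).
ANXA6, chr5:151157780-151158029, minus strand: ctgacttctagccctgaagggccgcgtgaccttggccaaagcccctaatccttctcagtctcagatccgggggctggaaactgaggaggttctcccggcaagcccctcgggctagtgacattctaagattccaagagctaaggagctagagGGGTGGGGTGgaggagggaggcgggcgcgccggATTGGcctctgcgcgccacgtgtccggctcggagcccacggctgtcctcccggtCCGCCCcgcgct
GM2A, chr5:151252935-151253184, plus strand: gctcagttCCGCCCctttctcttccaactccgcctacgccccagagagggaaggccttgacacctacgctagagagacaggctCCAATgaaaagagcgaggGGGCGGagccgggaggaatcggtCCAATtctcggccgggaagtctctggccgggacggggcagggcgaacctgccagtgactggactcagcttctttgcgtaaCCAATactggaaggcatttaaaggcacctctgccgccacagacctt
CCDC69, chr5:151224093-151224342, minus strand: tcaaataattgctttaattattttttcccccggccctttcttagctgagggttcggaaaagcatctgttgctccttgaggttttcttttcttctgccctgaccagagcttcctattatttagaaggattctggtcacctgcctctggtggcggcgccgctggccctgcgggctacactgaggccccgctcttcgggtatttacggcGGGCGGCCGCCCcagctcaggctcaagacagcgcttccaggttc

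A promoter window was at hand for 31 of the 33 genes. TATAAA was found in 0 of the 31, against 11.2% of all 27305 windows and 5.71% of the 9600 of tested genes. The GATA-type letters AGATAA or TGATAA were also found in 0, against 15% and 7.67%. GGGCGG was present in 61.3% of the windows of the stretch, which lies above the 42.2% of all windows and below the 66.7% of those of tested genes. The ETS-type CCGGAA, at 19.4%, likewise lay between 14.8% and 25.6%. CCAAT was present in 45.2%, against 33% and 35.5%, and CACCC in 67.7%, against 53.7% and 57.8%. The median number of CpG dinucleotides per window was 20 for the 23 genes of the stretch that were tested and have a window, 10 for the 8 that were not tested, and 21 for all windows of tested genes. ANXA6 had 19, GM2A 15 and CCDC69 13. These counts describe letters in the windows alone.

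By signal, most genes of the stretch read higher in MTX-resistant cells, by amounts that varied from gene to gene. The median log2 difference, resistant minus parental, was 0.78 over the 24 tested genes, against 0.02 over all 11810 tested genes. It was above 0 for 21 of the 24 and ran from -1.15 for CCDC69 to 2.30 for ANXA6, with 13 of the 24 between 0.5 and 1.5 (54.2%, against 15.3% of all tested genes). On each array the level of each gene was set against its mean on the parental arrays: the median over the 24 genes was 0.28, -0.05 and -0.20 in parental 1 to 3 and 0.93, 0.70 and 0.80 in resistant 1 to 3. The 3 resistant arrays thus lay close together and above each parental array.

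**Figure D1:**
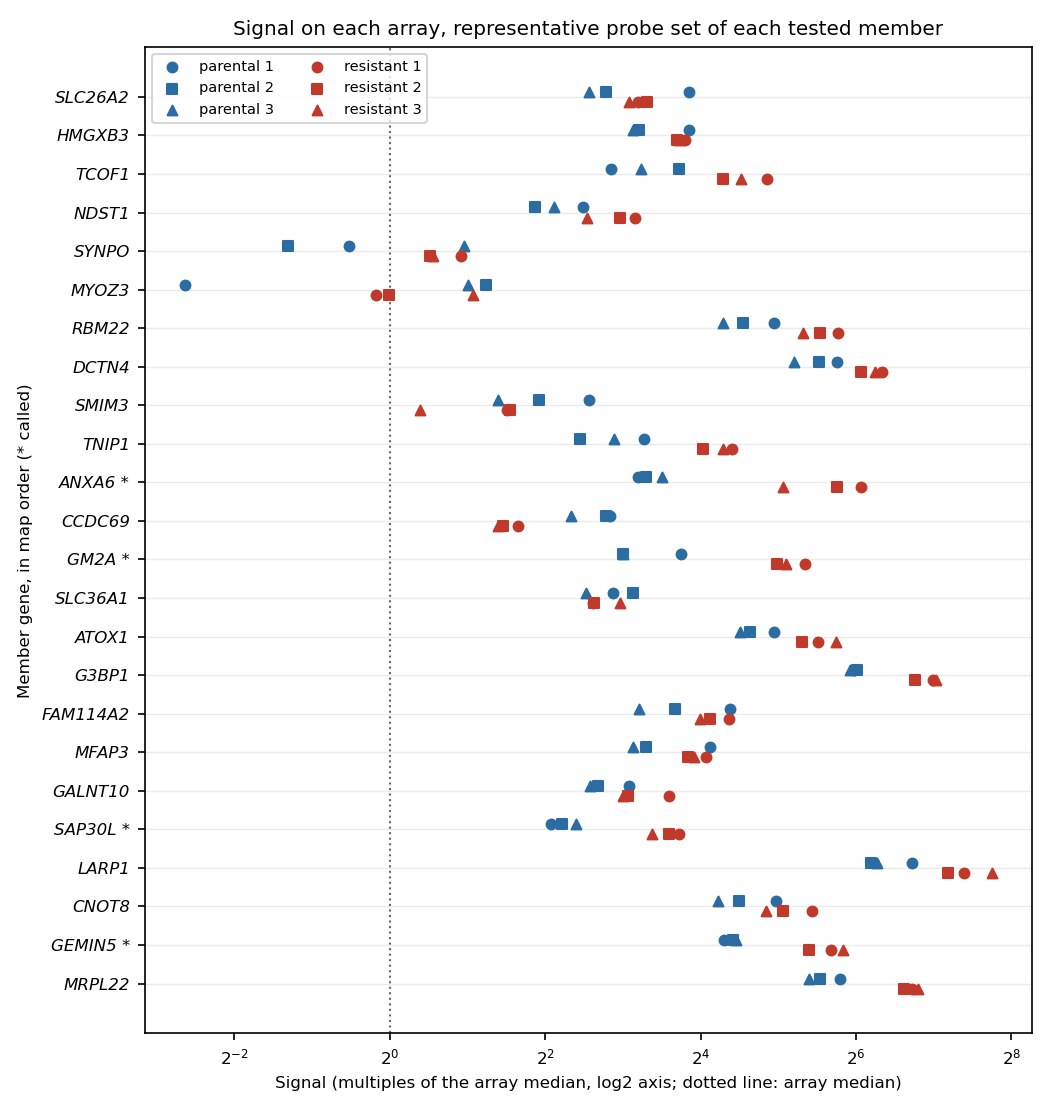
Signal on each of the 6 arrays for the representative probe set of the 24 tested genes, in map order, as multiples of the median of its array (log2 axis); blue marks are parental and red marks resistant arrays, and an asterisk marks a called gene. For 13 genes the red marks all lie to the right of the blue ones, and for CCDC69 to the left.

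For 13 of the 24 genes each resistant array exceeded each parental array, which was so for 16.1% of all tested genes, and for 1, CCDC69, each was lower (14.2%). In 10 genes the groups overlapped. A limma fit over 26692 probe sets called a gene at a Benjamini-Hochberg adjusted p under 0.05 and a difference of at least 2-fold. It called 4 of the 24 higher, ANXA6, GM2A, SAP30L and GEMIN5, where 1.3% of tested genes were called higher, and 0 lower (1.47%), or 2.77% in either direction. At an unadjusted p under 0.05, 13 genes of the stretch were higher (10% of all tested genes) and 1, CCDC69, was lower (9.97%). By probe set, 6 of 60 were called higher (1.2%) and 0 lower (1.14%), while 56 of the 60 had a log2 difference above 0, including 4 whose parental mean was under 1 array median. Of the 6, 3 carry the suffix _s_at, which marks probes shared by several transcripts. These shares follow from how the genes were chosen. Every one of the 4 calls was lost with no level filter, by the methods' t-test (0.533% of tested genes called) and with replicate number as a block. Calls over the whole table fell in these 3 settings too. They also rose or fell when 1 array was left out, as given at the end. The calls in the stretch likewise depended on which arrays were kept. Without parental 1, 5 genes were called, TNIP1, ANXA6, GM2A, SAP30L and MRPL22 (2.54% of tested genes called higher), and without resistant 3 only ANXA6. Without parental 2, parental 3, resistant 1 or resistant 2 the fit called 0 genes of the stretch. The median log2 difference was 0.72 to 0.89 in these 6 fits.

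The 7 genes that act on RNA or belong to the mitochondrial ribosome had a median log2 difference of 1.05. All were above 0, against 21 of the 24 tested genes of the stretch and 51.4% of all tested genes. In 6 of them the groups did not overlap and lay upward, against 13 of the 24 and 16.1% of all tested genes. Since the genes were chosen for their rise, these counts mark no function. GEMIN5, which recognises small nuclear RNAs for the SMN complex, gave 19.7, 21.4 and 22.05 array medians on the parental and 51.4, 42.1 and 57.1 on the resistant arrays. The parental values were within a narrow range and the lowest resistant value was well above it, a log2 difference of 1.24 ± 0.22 (SE). It was called with all 6 arrays, and lost the call whenever any 1 array was left out. LARP1, which binds messengers with a terminal oligopyrimidine tract and controls their translation, read 105.5, 73.1 and 77.4 in parental and 168.3, 145.4 and 214.9 in resistant cells. Its 3 tested probe sets differed by 0.96 to 1.26 on the log2 scale, each with separate groups.

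TCOF1 encodes treacle, a nucleolar factor of ribosomal RNA synthesis. Its representative probe set, the one with the highest mean level, read 7.20, 13.2 and 9.43 in parental and 29.0, 19.6 and 22.9 in resistant cells (log2 difference 1.29 ± 0.30). A second probe set, at 7.64, 8.86 and 8.57 against 31.5, 19.2 and 21.6, was called, with a fold of 2.82. The remaining one averaged 0.893 in parental cells and passed the level filter through the resistant arrays, so its difference is measured from background. The groups were separate in both of the brighter probe sets, although the representative one was not called. MRPL22, a protein of the large subunit of the mitochondrial ribosome, had 55.6, 46.7 and 42.02 in parental and 105.5, 98.7 and 111.2 in resistant cells. The groups were far apart relative to their spread, with a log2 difference of 1.14 ± 0.21, yet the gene was not called.

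G3BP1 is the core protein of stress granules. It read 62.8, 64.9 and 60.5 in parental and 127.5, 108.0 and 131.0 in resistant cells (log2 difference 0.96 ± 0.20). All 7 of its tested probe sets were above 0, from 0.36 to 1.14, and 4 of them had separate groups. The value of 1.14 ± 0.47 came from a probe set with overlapping groups and a low parental mean of 1.90. RBM22, a splicing factor of the catalytic spliceosome, read 30.7, 23.4 and 19.5 in parental and 54.8, 46.7 and 40.1 in resistant cells. All 3 of its tested probe sets had separate groups, with log2 differences of 0.95 to 1.18. CNOT8, a deadenylase of the CCR4-NOT complex, which shortens poly(A) tails, was the exception among the RNA genes by representative probe set. That probe set read 31.3, 22.5 and 18.8 in parental and 43.1, 33.4 and 28.8 in resistant cells, so parental 1 lay within the resistant range. Its other 2 probe sets had separate groups, with log2 differences of 0.87 and 1.08.

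ANXA6, a calcium-dependent protein that binds membrane phospholipids, showed the largest difference of the tested genes of the stretch. Its signal was 9.17, 9.83 and 11.4 array medians in the parental and 67.2, 54.3 and 33.3 in the resistant arrays, a mean of 10.1 ± 1.14 against 51.6 ± 17.1 (SD, n = 3). Every resistant value was above every parental one, with resistant 3 the lowest of its group, and the log2 difference was 2.30 ± 0.31 (SE), or 4.91-fold. The second probe set of the gene, at a mean of 0.951 in parental cells, passed the level filter through the resistant arrays and differed by 1.22 ± 0.46.

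DCTN4, a subunit of the dynactin complex that links dynein to its cargo, read 53.9, 46.1 and 36.8 in parental and 81.1, 66.9 and 76.05 in resistant cells. The difference of 0.72 ± 0.23 was small but the groups were separate, as they were for its other tested probe set. CCDC69, a coiled-coil protein that binds microtubules, went the other way, from 7.15, 6.88 and 5.02 on parental to 3.15, 2.74 and 2.62 on resistant arrays. Its log2 difference was -1.15 ± 0.23, and its second probe set gave -2.10 ± 0.42, again with separate groups. It was not called here but was called lower under quantile normalization, under scaling by the 75th percentile, with a filter at 2 array medians and with an intensity trend. SYNPO, synaptopodin, and MYOZ3, of the muscle Z-disc, were tested by 1 probe set each at levels of 0.16 to 2.37, where values lie near background and the groups overlapped.

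GM2A was read by 7 probe sets, of which 6 were tested, and all 6 were above 0. The gene encodes the activator that lifts GM2 ganglioside out of lysosomal membranes for cleavage by hexosaminidase A. The probe set with the highest level read 13.5, 8.01 and 8.03 in parental and 40.7, 31.6 and 34.4 in resistant cells, a log2 difference of 1.89 ± 0.28. The groups were separate, and the gene was called, as it was by a second probe set at 1.36, 1.10 and 0.906 against 7.82, 6.49 and 4.78 (2.50 ± 0.28). In 3 others the resistant arrays disagreed. One of these read 14.98 and 8.06 in resistant 1 and 2 and 1.83 in resistant 3, which lay within the parental range of 1.21 to 2.19. Resistant 3 was at or under 0.5 of the mean of resistant 1 and 2 in 10 of the 60 tested probe sets of the stretch, 16.7%, against 11.4% of all tested probe sets. Resistant 3 is the array with the raised 3' to 5' ratio of beta-actin, whose part in these readings was not tested.

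**Figure D2:**
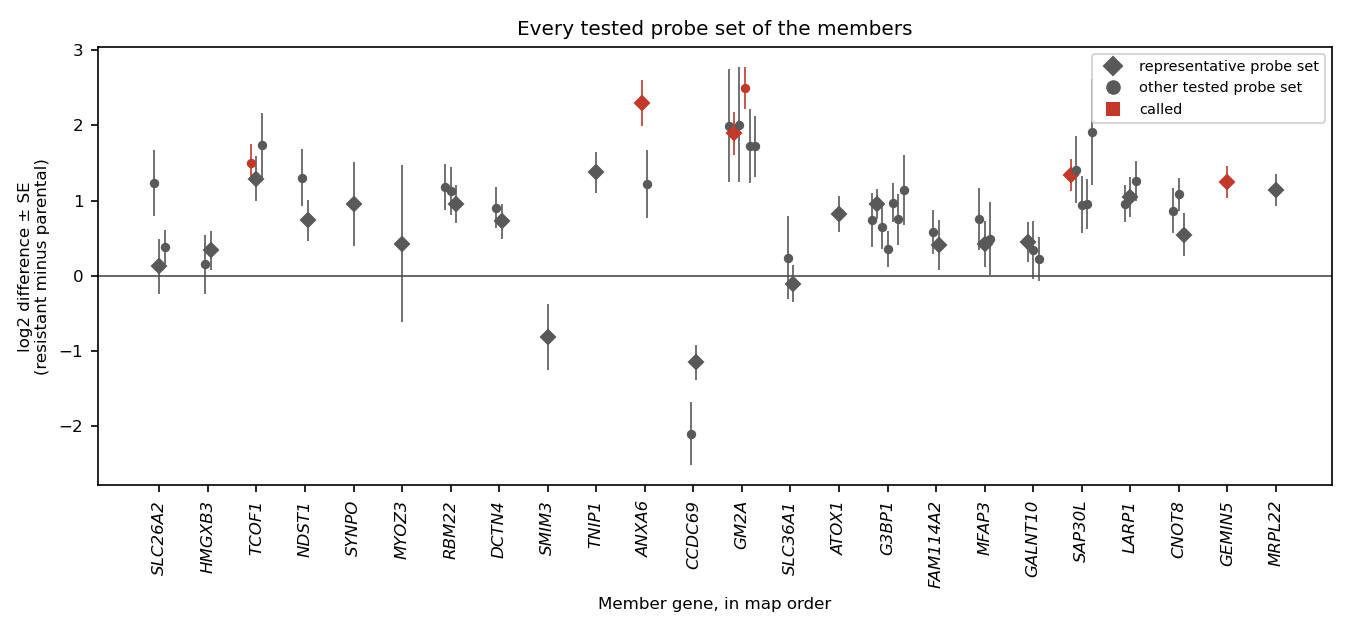
Log2 difference, resistant minus parental (± SE, 3 arrays per group) for each of the 60 tested probe sets of the stretch, grouped by gene in map order; diamonds are the representative probe set, red marks are called. The 6 probe sets of GM2A and the 7 of G3BP1 lie above 0, and both of CCDC69 lie below.

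SAP30L, a subunit of the Sin3 histone deacetylase complex, read 4.23, 4.63 and 5.24 in parental and 13.2, 12.1 and 10.4 in resistant cells. Its groups were separate by more than their spread (log2 difference 1.34 ± 0.21), and it was called. Of its 4 other tested probe sets, 2 averaged 0.825 and 0.726 in parental cells and passed the filter through the resistant arrays. The remaining 2 differed by 0.95 each on the log2 scale, 1 of them with overlapping groups. HMGXB3, an HMG-box protein, read 14.4, 9.28 and 8.72 against 13.99, 12.9 and 13.2, so that parental 1 exceeded each resistant array.

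ATOX1 carries copper to the pumps ATP7A and ATP7B. Parental arrays gave 30.9, 24.9 and 22.7 array medians and resistant arrays 45.7, 39.5 and 53.4, with separate groups and a log2 difference of 0.82 ± 0.23. TNIP1, which binds ubiquitin and the protein A20 to restrain NF-kappaB, read 9.70, 5.48 and 7.36 against 21.2, 16.4 and 19.6. Its groups were separate too, and the log2 difference was 1.37 ± 0.28. A second probe set, below the filter, read 0.147, 0.237 and 0.126 against 1.46, 1.03 and 1.29. The enzyme NDST1, which starts the sulfation of heparan sulfate, read 5.62, 3.65 and 4.32 in parental and 8.93, 7.83 and 5.83 in resistant cells, where the highest parental value almost reached the lowest resistant one (0.74 ± 0.27).

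In the other genes tested the groups overlapped. GALNT10, which starts mucin-type O-glycans, MFAP3, a microfibril-associated protein, and FAM114A2, little described, had log2 differences of 0.45, 0.43 and 0.41. For SLC26A2, a sulfate transporter, the representative probe set gave 0.13 ± 0.37, with parental 1 at 14.5 and parental 2 and 3 at 6.91 and 5.89. A second probe set of the same gene had separate groups, at 1.93, 6.42 and 2.88 against 7.21, 7.96 and 8.16. SLC36A1, a transporter that exports amino acids from lysosomes, had a log2 difference of -0.10 ± 0.25 and a second probe set of opposite sign, the sole case among 17 genes with several tested probe sets. SMIM3, a small membrane protein, had -0.81 ± 0.44.

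Parental 1 lay above parental 2 and 3 for 16 of the 24 genes (66.7%, against 47.0% of all tested genes), by a median of 0.42 on the log2 scale over the mean of those arrays (0.10 over all tested genes). This is the array with the raised epithelial markers, and its leukocyte markers summed to 153.5, against 96.2 and 97.2 in parental 2 and 3, with 3 of 7 highest in it. The higher sum lay mainly in PTPRC, at 60.2 against 0.374 and 0.402. CD3D stood at 50.3, against 31.9 and 35.2, whereas LYZ was lower in parental 1, at 42.1 against 60.95 and 60.5. The leukocyte list as a whole was therefore not raised in that array. The part of either set in these levels was not tested. EPCAM stood at 9.53 in parental 1, 1.19 and 0.307 in parental 2 and 3 and at most 0.471 in the resistant arrays. Without parental 1 the median log2 difference of the stretch was 0.88. Since the genes were chosen for their rise on these same arrays, that value gives the direction no further support.

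**Figure D3:**
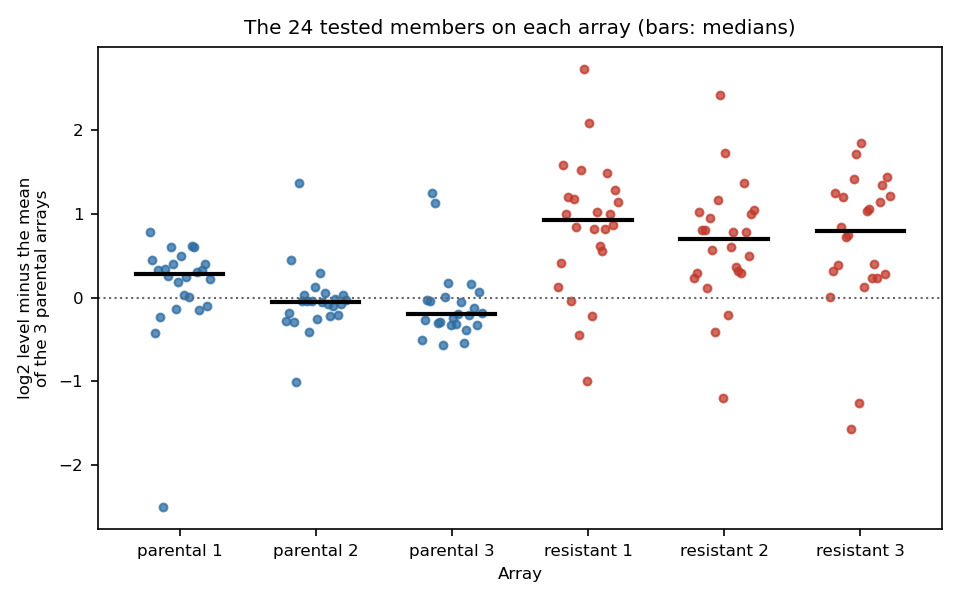
Level of the 24 tested genes on each array, as log2 minus the mean of the 3 parental arrays; points are genes and bars are medians. The bars stand at 0.28, -0.05 and -0.20 for the parental and at 0.93, 0.70 and 0.80 for the resistant arrays.

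The remaining 9 genes, CAMK2A, CD74, IRGM, ZNF300, GPX3, FAT2, GLRA1, NMUR2 and HAND1, had no probe set that averaged 1 array median over the 6 arrays, and no difference is given for them. Their 13 probe sets reached at most 1.90, and 12 of their 78 values were at or above the array median. They encode a neuronal kinase (CAMK2A), the invariant chain of class II antigen presentation (CD74), a GTPase of autophagy (IRGM), a zinc finger protein (ZNF300), a secreted glutathione peroxidase (GPX3), an atypical cadherin (FAT2), a glycine receptor subunit (GLRA1), the receptor of neuromedin U (NMUR2) and a transcription factor of the heart and trophoblast (HAND1). CD74 read 0.818, 0.183 and 0.142 in parental and 0.8455, 0.656 and 1.20 in resistant cells by its highest probe set, with parental 1 inside the resistant range. Another of its probe sets went the other way, with means of 0.6725 in parental and 0.4218 in resistant cells and overlapping groups. All of these values lie near background.

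The list of 33 genes does not hold every gene of the interval. The annotation places 78 others between SLC26A2 and MRPL22, 13 of them protein coding. Of these 78, 13 had a probe set and 4 were tested. RPS14 read 589.6, 531.1 and 481.1 in parental and 716.0, 667.6 and 661.4 in resistant cells, a log2 difference of 0.36 ± 0.20 with separate groups. Its other tested probe sets, at 2.07 or less in parental cells, gave 0.96 ± 0.25 with separate groups and 1.61 ± 0.73 with overlap. SPARC, a secreted matrix protein, was lower, at 41.1, 35.5 and 29.4 against 15, 11.4 and 5.73 (-1.82 ± 0.39), and its second probe set was called lower. GRIA1, a glutamate receptor subunit, read 3.66 in parental 1 and 0.0763 and 0.110 in parental 2 and 3, against 6.07, 4.70 and 6.70, so its difference is measured from background, and it passed the level filter mostly through the resistant arrays. FAXDC2, little described, had -0.57 ± 0.26, with separate groups downward in the representative probe set and overlap in 2 others. These 4 genes, which the rule left out, thus did not share a direction.

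By the medians of its flanks, the rise ended at MRPL22 on the far side but not at SLC26A2 on the near side. Among the 15 tested genes after MRPL22, from MED7 to HMMR, the median log2 difference was -0.09. In this flank 6 were above 0, against 51.4% of all tested genes. In none did each resistant array exceed each parental array (16.1%), and in 2 each was lower (14.2%). Among the 15 before SLC26A2, from SPRY4 to PPARGC1B, the median was 0.57 and 12 were above 0 (51.4%). In 6 of them all resistant arrays lay above all parental ones (16.1%). Of these, LARS1, the cytosolic leucyl-tRNA synthetase, had 0.95 ± 0.20, RBM27 1.02 ± 0.21, GRPEL2 1.06 ± 0.21 and PPARGC1B, adjacent to the stretch, 0.82 ± 0.29. MED7, adjacent on the other side, had -0.55 ± 0.32. The limma fit called 0 of these 30 flanking genes, with 6 higher and 2 lower at an unadjusted p under 0.05, where 10% and 9.97% of all tested genes passed. An intensity trend in the fit called 2 higher (2.33% of tested genes), and the methods' t-test 0.

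A running median over 15 successive tested genes stayed above 0.25 from SNHG4, 48 tested genes before SLC26A2, to MRPL22, a limit set after the values were seen. In those 48 genes the median was 0.63. Groups were separate upward in 20 and downward in 2, against 16.1% and 14.2% of all tested genes. The limma fit called 1 higher, SNORA74A, and 1 lower, ARAP3, against 1.3% and 1.47%. Since the limit was set on these values, the upward counts follow in part from it. SNORA74A averaged 0.127 array medians in parental cells and passed the level filter only through the resistant arrays, and ARAP3, at 0.928 in resistant cells, only through the parental ones. The run on 5q14, from BHMT to VCAN, had a median of 3.04 over 20 tested genes, of which 16 were called higher (1.3% of all tested genes). The log2 differences of 5q32 to 5q33 were thus smaller than those of 5q14 on the same arrays, and that contrast was not tested.

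**Figure D4:**
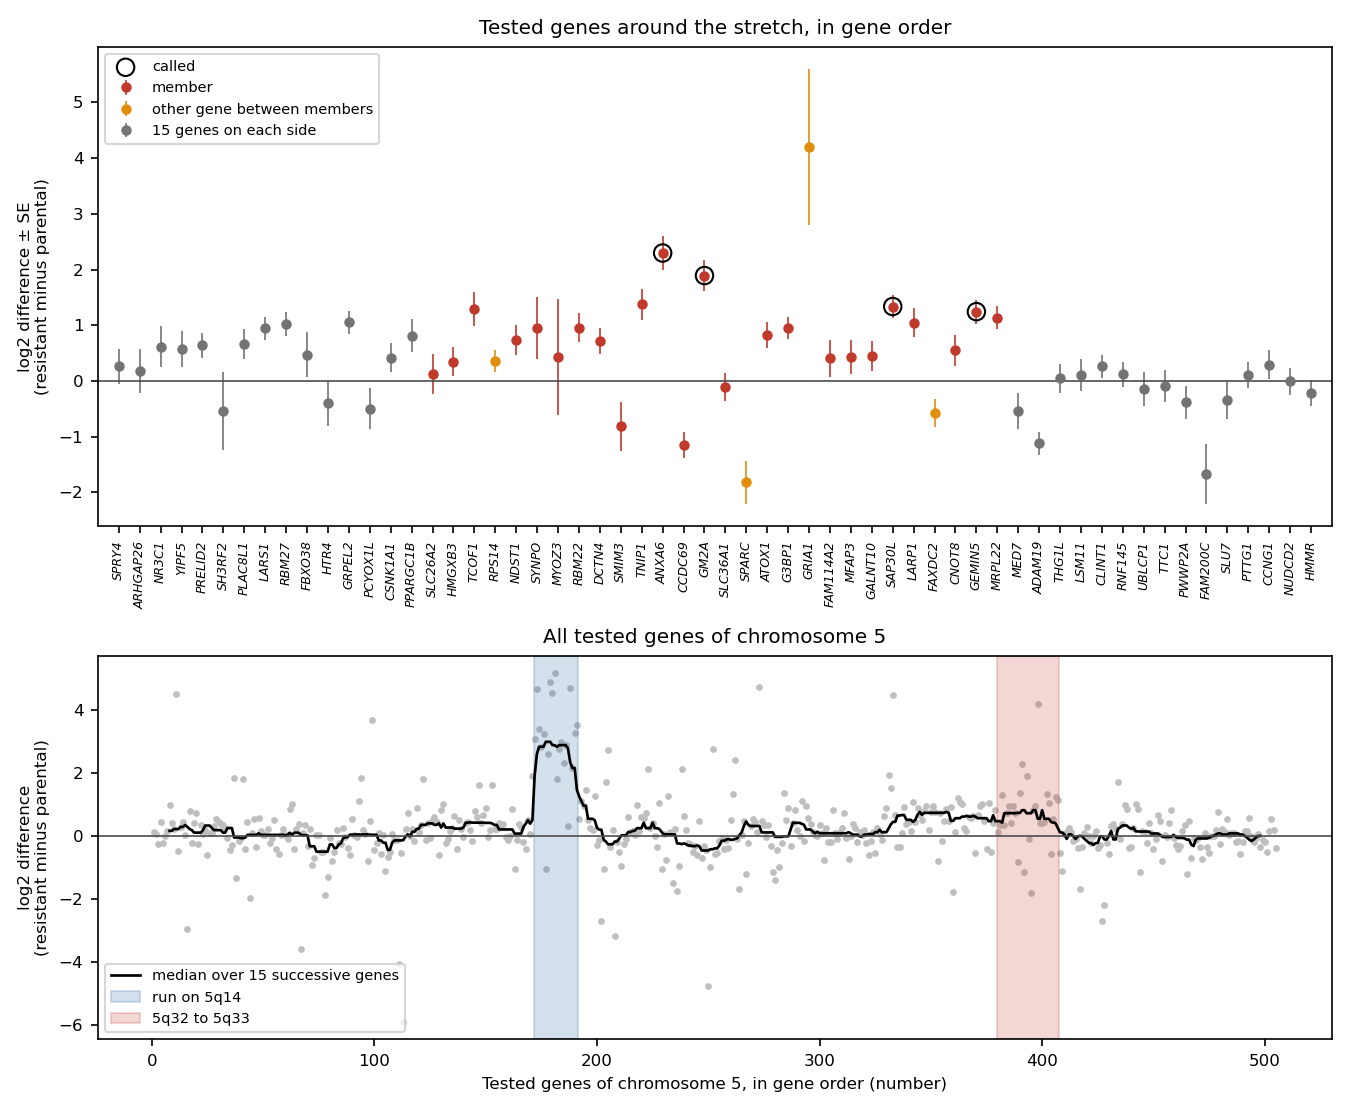
Log2 difference, resistant minus parental, in gene order (upper, ± SE, 3 arrays per group) for the tested genes of the stretch, 4 other tested genes between them and 15 on each side, and (lower) for all 505 tested genes of chromosome 5, with the median over 15 successive genes as a black line. The line varies within the red band, where its peak is 0.82 and its ends are lower, falls to about 0 after MRPL22, and reaches about 3 on 5q14.

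Genes that work with those of the stretch were read from lists of partners elsewhere in the genome. Of 111 listed partners 87 were tested, and limma called 0 higher and 1 lower (background 1.3% and 1.47% of tested genes). At an unadjusted p under 0.05, 12 of the 87 were higher and 8 lower, against 10% and 9.97% of all tested genes. An intensity trend called 1 higher and 4 lower, against 2.33% and 2.72%, and the methods' t-test called 0. The gene called lower was ATP7A, the copper pump that ATOX1 supplies, with 17.3, 17.7 and 15.6 array medians on parental and 5.50, 6.62 and 8.34 on resistant arrays. Its groups were separate (log2 difference -1.32 ± 0.23, limma adjusted p = 0.0447), but the call was lost whenever any single array was left out (adjusted p 0.058 to 0.174). ATP7B read 17.2, 17.3 and 13.6 against 9.19, 6.94 and 7 and was not called (adjusted p = 0.0774 by limma), and the 12 tested copper genes had a median of -0.11. Of these 12, 3 had separate groups downward (14.2% of all tested genes) and 3 upward (16.1%), none of the latter called. Those upward were the copper importer SLC31A1 (1.05 ± 0.42) and the cytochrome oxidase assembly factors SCO1 (0.84 ± 0.22) and SCO2 (0.94 ± 0.24).

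The other lists held 0 genes called by limma. Medians were 0.39 for 10 genes of stress granules and terminal oligopyrimidine messengers, 0.34 for 10 of ribosomal RNA synthesis and 0.26 for 10 of the SMN complex and its clients. In that order, groups were separate upward in 6, 5 and 4 genes (16.1% of all tested genes) and downward in 0, 0 and 1 (14.2%). Medians were 0.07 for 12 genes of the CCR4-NOT complex, 0.02 for 7 annexins, 0.01 for 12 enzymes of heparan sulfate and O-glycans, -0.32 for 8 lysosomal genes of ganglioside breakdown and -0.76 for 4 genes of class II presentation. Here groups were separate upward in 2, 1, 2, 1 and 1 genes and downward in 0, 1, 3, 2 and 1, in the same order. Of 5 glutathione peroxidases other than GPX3, 2 were tested: GPX4 differed by 0.27 ± 0.30, and GPX8, with 5.83, 1.08 and 0.118 on parental and 12.8, 11.8 and 10.5 on resistant arrays, by 3.68 ± 1.28. For the hexosaminidase subunit HEXA, which acts with GM2A, the signal was 44.4, 27.4 and 22.6 in parental and 22.3, 18.5 and 20.9 in resistant cells, a log2 difference of -0.56 ± 0.30 that was not called.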

How the data were processed

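The authors hybridised RNA of 3 parental and 3 MTX-resistant samples to Affymetrix HG U133 PLUS 2.0 arrays and deposited intensities, 1 linear signal per probe set, computed with MAS5 per the labels (version not stated); no genome build is given in the sources used here. The division by the array median and by the parental median that the methods describe is not in the deposited intensities.

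Intensities were expressed as multiples of the array median, floored at 0.01 and turned to log2. The 62 control probe sets and those averaging under 1 array median were left out of the test, and 26692 of 54675 remained. This level filter replaces the control strength filter of the study's software. Groups came from the sample titles. limma (version 3.58.1, R 4.3.3) compared resistant with parental arrays, two-sided, with Benjamini-Hochberg adjustment over all tested probe sets. Each SE is moderated: limma moves the variance of a probe set toward a value shared by all of them. A run of the fit on simulated independent values checked only that known changes were recovered on average. It was not used to judge the calls made here. Each gene was represented by its tested probe set of highest mean log2 level. Of all probe sets, 41097 named 1 gene, 1801 several and 11777 none. Gene order, names and promoter windows came from RefSeq (GRCh38.p14). Coordinates are those of the printed sequences.

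The genes of the stretch and the lists were chosen with earlier results of these data known. Members called or with separate groups were given on all arrays and the others by level, range and counts; of other genes, those called among the flanking, intervening and partner genes were to be named. LARS1, RBM27, GRPEL2, PPARGC1B, MED7, SNORA74A, ARAP3, ATP7B, HEXA, SLC31A1, SCO1, SCO2, GPX4, GPX8, RPS14, SPARC, GRIA1, FAXDC2 and the upstream sequence of CCDC69 were added after their values were seen. A signal below the array median lies near background. Alternatives are given at the end. The number of arrays limits the precision.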

Additional observations from a re-analysis of the deposited data

How the results depend on the processing

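The median log2 difference of the stretch was above 0 under every alternative run, whereas the number of calls varied. It moved by less than 1 SD of its values over the resistant arrays, except with values as deposited, where it was 0.58 and the median of all tested genes was -0.18. Leaving out 1 array gave 0.72 to 0.89. Of 448 values of single genes under 19 alternatives, 432 moved by less than 1 SD between replicates and 16 by more, and 0 called ones changed sign. Against 4 genes of the stretch called higher and 0 lower, the intensity trend gave 8 and 1, a pseudocount of 1 gave 8, values as deposited 1, and leaving out _x_at and _s_at probe sets 2. No level filter, the methods' t-test and the replicate block gave 0. Scaling by the 75th percentile, a filter at 2 array medians and quantile normalization each added 1 called lower, CCDC69. Against 6 probe sets of the stretch called higher and 0 lower, the trend gave 15 and 2, the filter at 2 array medians 10 and 2, the pseudocount of 1 14 and 1, the pseudocount of 0.25 1 lower, the 75th percentile 2 lower, quantile normalization 1 lower, values as deposited 2 higher, no filter and the methods' t-test 0 higher, the replicate block 1 higher and the omission of _x_at and _s_at probe sets 3 higher. Leaving out 1 array gave 0 to 5 genes and 0 to 12 probe sets of the stretch called higher.

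Over the whole table, 319 probe sets were called higher and 303 lower. The numbers were 563 and 570 with the trend, 82 and 44 with the methods' t-test (an unpaired test on the same values, Benjamini-Hochberg adjusted), 97 and 77 with no filter, 599 and 592 with a pseudocount of 1, and 204 and 190 without _x_at and _s_at probe sets. A pseudocount of 0.25 gave 455 lower and values as deposited 210 higher. Leaving out 1 array gave 103 to 633 higher and 79 to 447 lower. Without parental 1 and resistant 3 together, an alternative chosen after seeing the data, there were 526 and 488. With replicate number as a block, 133 were called higher and 136 lower, but same-numbered arrays did not deviate together (correlations of -0.0067, -0.0253 and -0.0064), so the numbers do not pair the samples. The call of ATP7A was also lost under 75th percentile scaling, quantile normalization, the methods' t-test, no level filter and the block. The cause of these changes was not tested.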
